A study of Mus musculus with 12 samples.

Results

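The genes described here are 40 genes of skeletal muscle: the motor and regulatory proteins of the sarcomere, the proteins that release and take up calcium, enzymes and carriers of muscle energy supply, and 3 myogenic transcription factors. They were chosen by name, with 1 row per gene taken from its brightest probe, and were measured among 20376 genes in mouse mammary tumors. All 40 had at least 1 probe (71 probes in all). Of these genes, 33 were bright enough to be tested and 7 (Myh3, Myh7, Mybpc1, Tnnt3, Actn3, Pvalb and Myf6) were not.

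The tumors were 8 mammary tumors labelled ShcA-null, which lack the adaptor protein ShcA (gene Shc1) per their labels. Each was hybridised on a 2-colour oligonucleotide array against RNA of pooled NIC tumors, a mammary tumor model in which an activated Neu (ErbB2) receptor and Cre recombinase are made from one transcript under a mammary promoter. Every value below is a log2 ratio of tumor over that pool, so that 1 is a doubling and 0 is the level of the pool. The tumor RNA carried Cy5 on the first array of each tumor, and tumors 1 to 4 had a dye-swapped array on which it carried Cy3, which gave 12 arrays. The labels give no age, strain, treatment, deleted exon or number of pooled animals, and do not say that tumors came from separate animals, so each p-value reflects how far these 8 samples differ, which may be technical. The pool counts as 1 control sample, and its own spread is not part of any test.

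Some arrays stood apart from their labels. Over all probes kept other than those of the members, the swapped array labelled tumor 1 correlated best with the first array of tumor 1 (r = 0.57). The swapped array labelled tumor 2 correlated at 0.82 with the first array of tumor 3 and at 0.16 with that of tumor 2. The swapped arrays labelled tumors 3 and 4 correlated best with tumors 4 (0.39) and 8 (0.68), against 0.13 and 0.29 with their own. Values are therefore given by array, and counts are given with the swapped arrays and from the 8 first arrays alone. The averages of tumors 2, 3 and 4 over both arrays may mix tumors. Each SD, p-value and count over the 8 tumors that uses these averages treats them as separate tumors. Shc1 itself gave log2 ratios between 0 and 0.74 on 10 arrays, -2.05 on the first array of tumor 3 and -2.22 on the swapped array labelled tumor 2, and was not called over the 8 tumors (mean 0.12 ± 0.65, SD, n = 8, limma adjusted p = 0.713). Shc1 RNA thus went against the label in most tumors, and the probe may lie outside the deleted part.

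In a muscle fiber, myosin heavy chains of the thick filament pull on actin of the thin filament. A nerve impulse activates the dihydropyridine receptor and through it the ryanodine receptor, calcium leaves the sarcoplasmic reticulum and binds troponin C, and the calcium pump then returns it to the store. Fast and slow fibers use different genes for most of these proteins, and neither kind belongs to the mammary epithelium, although skin and body-wall muscle lie beside the gland.

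The array reads each gene through probes of 60 bases. Those shown here read genes on which the findings turn. The first pair covers the same stretch of 2 myosin heavy chain genes, Myh4 (fast fibers, chr11:67340868-67340927) and Myh3 (embryonic fibers, chr11:67182921-67182980). Both lie on the plus strand of mouse build mm7, the build of the array design. Over an overlap of 55 bases, 40 were identical, and capitals mark the 15 that differ.

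Myh4: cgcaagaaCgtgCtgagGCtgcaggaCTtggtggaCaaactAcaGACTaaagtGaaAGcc
Myh3: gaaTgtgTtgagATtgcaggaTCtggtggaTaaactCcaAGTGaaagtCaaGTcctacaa

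On the first arrays of tumors 1 to 4 this Myh4 probe gave log2 ratios of 0.14, 2.96, 4.15 and 0.05, where the Myh3 probe gave -0.01, -0.22, -0.18 and -0.05. In tumors 6 and 7 the Myh4 probe gave 1.20 and 2.17 and the Myh3 probe 0.38 and 0.21. The Myh3 probe was well above background on 2 of 12 arrays, its 2 highest tumor signals being 209 and 208 scanner units in tumors 6 and 7, so its ratios elsewhere say little. The values of Myh4 further on are those of another, brighter probe. Cross-hybridisation among other myosin heavy chain genes was not tested.

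Probes of a fast myosin light chain, a fast troponin and the muscle creatine kinase are shown because they read other parts of the fiber and because each was highest in tumor 3 on the first arrays. They lie at chr7:123309793-123310029 (Mylpf), chr7:138939875-138941637 (Tnnt3) and chr7:17099247-17101854 (Ckm) of mm7, plus strand, each over an interval longer than the probe. The Tnnt3 probe shown is the dimmer of its 2 probes and read 2.36 and 4.20 in tumors 2 and 3, while the values of Tnnt3 given further on are those of the brighter one.

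Mylpf: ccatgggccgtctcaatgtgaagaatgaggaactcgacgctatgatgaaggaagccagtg
Tnnt3: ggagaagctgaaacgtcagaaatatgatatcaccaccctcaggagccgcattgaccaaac
Ckm: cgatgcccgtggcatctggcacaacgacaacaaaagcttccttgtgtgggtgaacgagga

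Fast-fiber genes were high in some tumors and at the level of the pool in others. The median log2 ratio of the 13 fast-fiber members, counting tested and dim ones, was 3.67 on the first array of tumor 3, 2.25 in tumor 2, 1.40 in tumor 7 and 0.93 in tumor 6. It was 0.17, 0.14, -0.03 and 0.23 in tumors 1, 4, 5 and 8. All 13 had their highest first-array value in tumor 3, and in 9 of them tumor 2 came next. On the first array of tumor 3, 13 of 13 fast members were at least 2-fold above the pool, against 11 of 12 in tumor 2, 10 of 13 in tumor 7, 6 of 13 in tumor 6 and at most 1 in each of the other tumors. Of all genes tested, 13.65% were at least 2-fold above the pool in tumor 3, 5.185% in tumor 2, 9.166% in tumor 7 and 13.55% in tumor 6. More muscle cells and more RNA per muscle cell cannot be told apart in such bulk RNA. Which cells gave the high values was not tested.

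The swapped arrays did not repeat this order under their labels. On the swapped arrays, in the order of their labels 1 to 4, the fast-fiber median was -0.01, 2.44, 0.05 and 0.23. The first array of tumor 3 was the highest of all and the swapped array labelled tumor 3 was at the pool, whereas the swapped array labelled tumor 2 was high. Over the 40 members the latter correlated at 0.95 with the first array of tumor 3 and at 0.87 with that of tumor 2, a description over genes that share these arrays.

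**Figure D1:**
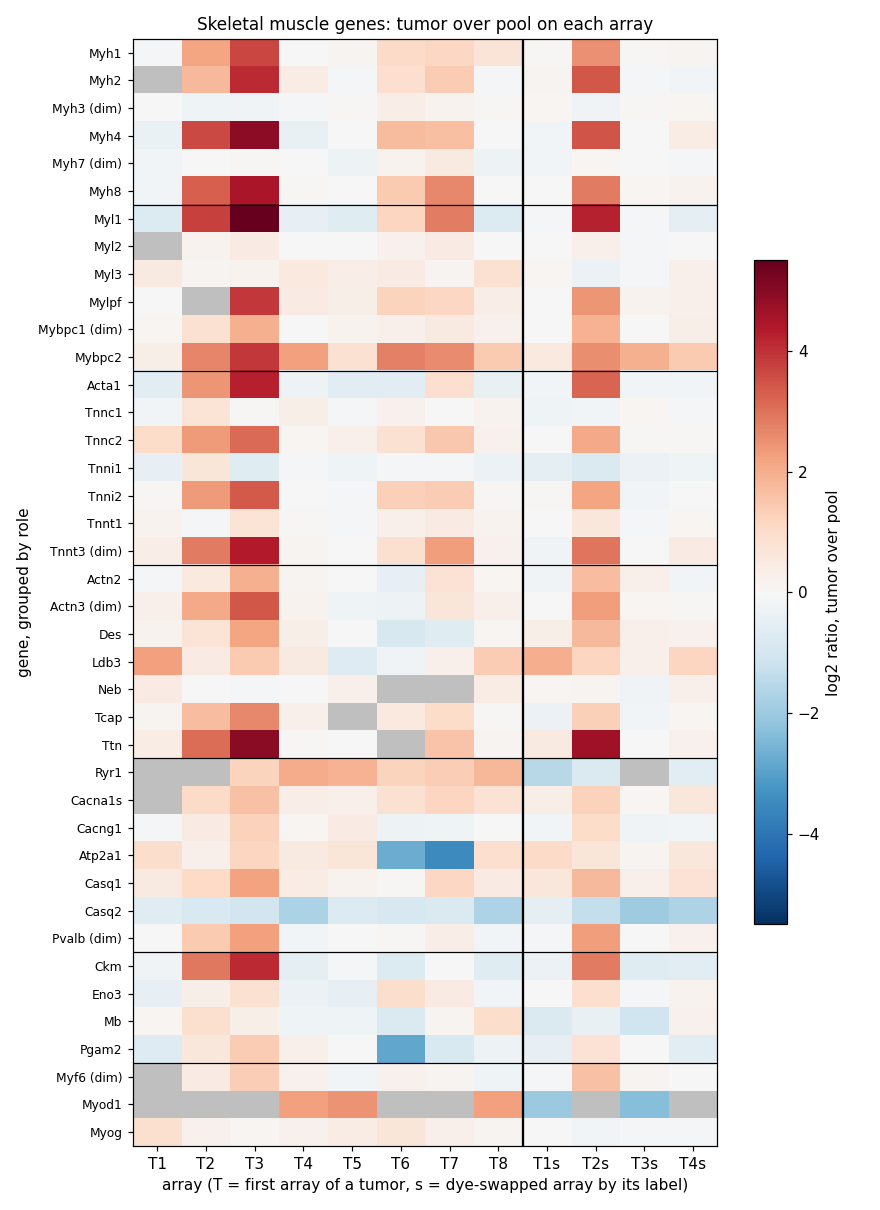
Log2 ratio of tumor over pool (colour) for each of the 40 muscle genes (rows, grouped by role) on the 8 first arrays (T1 to T8) and the 4 swapped arrays (T1s to T4s, by label). Grey marks values left out as spot outliers and "dim" marks genes too dim to be tested. The columns T3, T2 and T2s are the reddest, with Myh4 at 4.94, 3.62 and 3.44.

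Most slow-fiber genes, read by their brightest probes, stayed nearer to the pool. The median of the 8 slow or cardiac members was 0.12 in tumor 3 and 0.18 in tumor 2, and over the first arrays it spanned -0.13 to 0.31. On the first arrays no slow member other than Mybpc1 (1.97 in tumor 3) was 2-fold above the pool by its brightest probe. The other kept probe of the slow light chain Myl3 was, with 1.92, 3.25 and 1.5 in tumors 2, 3 and 7. The pool RNA of Myl2 and Mybpc1 was well above background on 1 of 12 arrays each, so their ratios say little of a level. Myh7, the slow and cardiac myosin heavy chain, stayed near background in both RNAs (0 of 12 arrays well above it). Its ratios between -0.30 and 0.50 on the first arrays are therefore no measurement of a level.

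Over the 8 tumors, with both arrays of tumors 1 to 4 averaged, 6 of the 33 tested members were called higher than the pool by limma's moderated test (adjusted p under 0.05 over all genes): Mybpc2, Mylpf, Tnnc2, Myh1, Cacna1s and Casq1. Of all 20376 genes, 7.1% were called higher. Only Casq2 was called lower among the 33, where 11% of all genes were. From the first arrays alone, 8 members were called higher (Mybpc2, Tnnc2, Cacna1s, Casq1, Myl3, Ryr1, Myod1 and Myog) beside 8.97% of all genes, and Casq2 alone was called lower beside 13.6%. A member that is dim in the pool could enter the test only through tumors in which it was bright, so these counts are descriptions. Without tumor 2, 3 or 7, the members called higher were Mybpc2, Cacna1s and Casq1 alone, and without tumor 4, 6 or 8 they were these and Tnnc2. The median of the 33 means was 0.46, and that of all genes was -0.02.

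**Figure D2:**
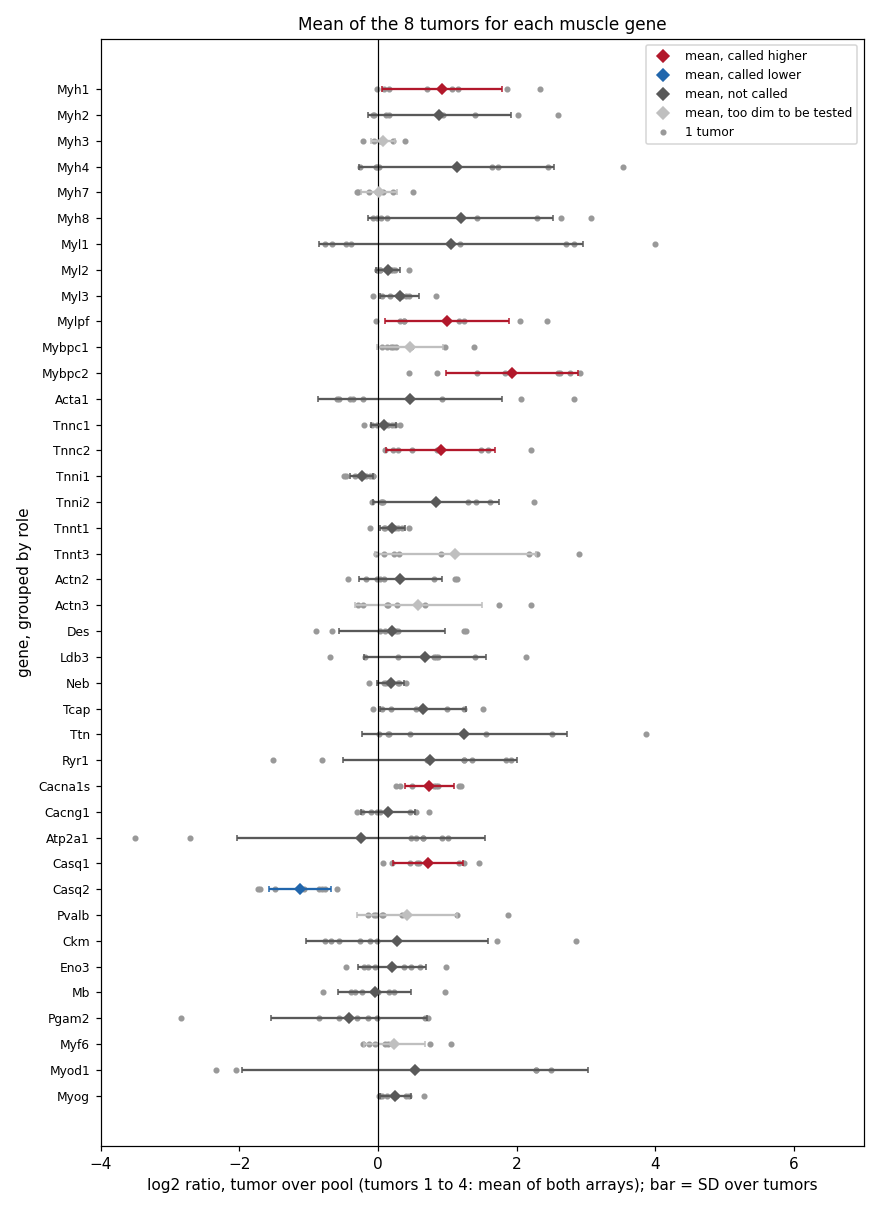
Mean log2 ratio of the 8 tumors (diamonds, coloured by call) with the SD over tumors (bars) and each tumor's value (grey points) for each of the 40 genes; tumors 1 to 4 are means of both arrays. Myl1 and Ryr1 have wide bars and no call, while Cacna1s (0.74) and Casq2 (-1.13) have narrow bars and are called.

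Among the 6 myosin heavy chains, the motors of the thick filament, 4 were tested and Myh1 was called. Myh4, the chain of the fastest fibers and the brightest of the group, gave log2 ratios of -0.38, 3.62, 4.94, -0.42, -0.03, 1.73, 1.64 and 0.01 in tumors 1 to 8 (first arrays). The highest of these is a 30.63-fold ratio. Tumors 2, 3, 6 and 7 thus stood above the pool and the other 4 tumors beside it. The swapped arrays gave -0.14, 3.44, -0.04 and 0.39. With a mean of 1.13 ± 1.41 (SD, n = 8) it was not called (limma adjusted p = 0.100, exact sign-flip permutation p = 0.117, two-sided). The tumor RNA was well above background on 5 arrays and the pool RNA on 4, so a value near 0 elsewhere is a ratio of signals near background.

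Myh8, known from the perinatal fiber, had the largest mean of the group, 1.19 ± 1.33 (SD, n = 8, limma adjusted p = 0.0731). It read 3.30, 4.49, 1.43 and 2.63 in tumors 2, 3, 6 and 7 and between -0.13 and 0.05 on the first arrays of the others. Its other 3 probes did not share this pattern, with values between -0.19 and 0.37 on those 4 arrays, and were well above background on at most 1 array. The high Myh8 values thus rest on 1 of 4 probes.

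Myh1, the chain of an intermediate fast fiber, gave -0.09, 2.17, 3.67, -0.01, 0.15, 1.07, 1.15 and 0.70 on the first arrays and 0.05, 2.52, 0.05 and 0.17 on the swapped ones. Its mean was 0.92 ± 0.86 (SD, n = 8), above 0 in 7 of 8 tumors (limma adjusted p = 0.0443, exact sign-flip permutation p = 0.0156). The call was lost from the first arrays alone (adjusted p = 0.0725). Its other kept probes read 0.01 and 1.03 in tumor 3. Myh2, another fast chain, read 4.11 in tumor 3 and 1.77 in tumor 2, with a mean of 0.88 ± 1.03 (SD, n = 8, limma adjusted p = 0.0847).

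Among the 6 light chains and myosin binding proteins, 5 were tested and 2 were called. Mybpc2, the myosin binding protein C of fast fibers, had the largest mean of the 40 genes at 1.93 ± 0.95 (SD, n = 8), a 3.81-fold ratio. Its first arrays gave 0.34, 2.67, 3.89, 2.25, 0.85, 2.76, 2.60 and 1.42, and its swapped arrays 0.54, 2.57, 1.94 and 1.42. It was above the pool on all 12 arrays, also in tumors 4 and 8, where the fast-fiber median was 0.14 and 0.23 (limma adjusted p = 0.00324, exact sign-flip permutation p = 0.00781, the smallest that 8 tumors allow). On the first arrays alone its mean was 2.10 (limma adjusted p = 0.0038).

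Mylpf, a light chain of fast fibers, was well above background on every array in both RNAs. Its first arrays gave -0.04 in tumor 1, 3.87 in tumor 3, and 0.47, 0.32, 1.24, 1.16 and 0.37 in tumors 4 to 8; the spot of tumor 2 was an outlier, and the swapped array labelled tumor 2 gave 2.44. Its mean of 0.99 ± 0.89 (SD, n = 8) was called (limma adjusted p = 0.0373), and was not called from the first arrays alone (adjusted p = 0.11).

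Myl1, the other fast light chain and the brightest of this group, spanned the widest range of all: -0.74, 3.76, 5.47, -0.44, -0.66, 1.18, 2.83 and -0.76 on the first arrays. It lay below the pool in tumors 1, 4, 5 and 8, and its highest value is a 44.35-fold ratio. Its mean of 1.05 ± 1.90 (SD, n = 8) was not called (limma adjusted p = 0.232). Myl2, the slow and ventricular light chain, stayed between -0.02 and 0.45 on the first arrays.

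Among actin and the troponins, 6 of 7 were tested and Tnnc2 was called. Tnnc2, the calcium sensor of fast fibers, gave 1.00, 2.33, 3.12, 0.12, 0.28, 0.85, 1.49 and 0.22 on the first arrays. Its swapped arrays gave -0.02, 2.09, 0.07 and 0.08. With both arrays of tumors 1 to 4 averaged, it was above the pool in 8 of 8 tumors, with a mean of 0.90 ± 0.78 (SD, n = 8, limma adjusted p = 0.0325). The call was lost with a dye term and the swapped arrays blocked by label (limma adjusted p = 0.0559) or by best match (0.136), as were those of Myh1 (0.0857 and 0.173) and Mylpf (0.0962 and 0.273). Acta1, the actin of skeletal thin filaments and the brightest of the group, gave -0.57, 2.43, 4.28, -0.30, -0.60, -0.56, 0.92 and -0.40. Unlike Myh4, it was below the pool in tumor 6, and its mean of 0.46 ± 1.33 (SD, n = 8) was not called (limma adjusted p = 0.459).

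Among the other troponins the fast ones had the higher values in tumors 2 and 3, a difference that was not tested. Tnni2, the inhibitory troponin of fast fibers, read 2.33 in tumor 2 and 3.36 in tumor 3, and Tnnt3, the fast troponin T, which was too dim to be tested, read 2.85 and 4.38. The slow partners Tnnc1, Tnni1 and Tnnt1 read 0.77, 0.67 and -0.12 in tumor 2 and 0.05, -0.66 and 0.76 in tumor 3, so that Tnnc1 and Tnni1 had their highest first-array value in tumor 2. Of the 5 tested troponins, Tnnc2 alone was called.

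Of the 7 genes of the Z disc, titin and the cytoskeleton, 6 were tested and none was called by limma. Of these 6, 3 had an unadjusted p under 0.05, as did 6881 of all 20376 genes. Ttn, the giant spring of the sarcomere, read 3.07, 4.98 and 1.56 in tumors 2, 3 and 7 and between 0.01 and 0.42 on the other first arrays measured. Its mean over 7 tumors was 1.24 ± 1.48 (SD, n = 7, limma adjusted p = 0.104). Of its 8 other probes, one too dim to be kept read 1.35 and 2.67 in tumors 2 and 3, and the next brightest kept one spanned -0.39 to 0.54 on the first arrays. Tcap, which caps titin at the Z disc, read 1.71 and 2.63 in tumors 2 and 3, and Actn3, the fast alpha-actinin, too dim to be tested, read 2.09 and 3.42.

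Actn2, the other sarcomeric alpha-actinin, read 0.55 and 1.95 in tumors 2 and 3. Des, the intermediate filament of all muscle types, was 2.19 in tumor 3 and lay below the pool in tumors 6 and 7 (-0.89 and -0.67). Ldb3, a Z disc protein and the brightest gene of its group, followed another order, with 2.26 in tumor 1, 1.45 in tumor 3 and 1.39 in tumor 8. Its swapped array labelled tumor 1 gave 2.00. It was called higher with a dye term and tumors blocked by label (limma adjusted p = 0.0212), with the mean over probes (0.0433) and without tumor 5 (0.0499), and under no other alternative tried. Another kept Ldb3 probe read 0.43, 1.86 and 0.32 in tumors 1, 3 and 8, an order closer to that of the fast genes. Neb, the ruler of the thin filament, was well above background on 4 of 12 arrays and spanned -0.06 to 0.45.

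Of the 7 calcium handling genes, 6 were tested. Of these, 2 were called higher and 1 lower, beside 7.1% and 11% of all genes. Cacna1s, the voltage sensor in the T tubule, was above the pool in 8 of 8 tumors with 1.06, 1.60, 0.36, 0.26, 0.83, 1.19 and 0.81 in tumors 2 to 8 (first arrays). Its mean was 0.74 ± 0.35 (SD, n = 8, limma adjusted p = 0.00584), and 0.87 from the first arrays alone (adjusted p = 0.009). Casq1, the calcium store protein of fast fibers, gave 0.50, 1.10, 2.23, 0.40, 0.20, 0.07, 1.16 and 0.46, with a mean of 0.72 ± 0.51 (SD, n = 8, limma adjusted p = 0.0192), and was not called with the best-match block (0.0595).

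Casq2, the calsequestrin of slow and cardiac muscle, was below the pool on all 12 arrays. Its first arrays gave -0.67, -0.83, -1.02, -1.74, -0.76, -0.86, -0.81 and -1.71, and its swapped arrays -0.51, -1.32, -1.97 and -1.71. On the first arrays the lowest values were those of tumors 4 and 8, not of the tumors with high fast-fiber genes, and the lowest of all 12 was on the swapped array labelled tumor 3. The mean fell by 1.13 ± 0.45 (SD, n = 8, limma adjusted p = 0.00207, exact sign-flip permutation p = 0.00781), and both RNAs were well above background on 12 of 12 arrays. Cacng1, an accessory subunit of the T tubule channel, read 1.28 in tumor 3 and -0.30 to 0.46 on the other first arrays (mean 0.14 ± 0.39, SD, n = 8, limma adjusted p = 0.516). Pvalb, the calcium buffer of fast fibers, was too dim to be tested and read 1.46 and 2.25 in tumors 2 and 3.

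For Atp2a1, Myl3 and Ryr1 the value depended on the probe. Of the 2 probes of Atp2a1, the calcium pump of fast fibers, the brighter one (chr7:122544747-122544806, minus strand) was at 0.29 and 1.17 in tumors 2 and 3 and at -2.72 and -3.51 in tumors 6 and 7. The other (chr7:122543142-122543485, minus strand), too dim to be kept, was at 2.64, 3.54, 0.33 and 2.03 in these tumors, the order of the other fast genes. Of the probes of Myl3, a slow and ventricular light chain, the brighter (chr9:110461523-110461582, plus strand) spanned 0.17 to 0.84 on the first arrays, and the other (chr9:110466830-110467124, plus strand) was at 1.92, 3.25, 0.65 and 1.5 in tumors 2, 3, 6 and 7. On the swapped arrays the brighter Myl3 probe gave 0.09, -0.31, -0.09 and 0.26. It was called higher from the first arrays alone (limma adjusted p = 0.0249) and not over all 12 arrays (0.0839). The sequences show which stretches of each transcript disagreed.

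Atp2a1, brighter: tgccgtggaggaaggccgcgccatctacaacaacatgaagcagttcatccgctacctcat
Atp2a1, other: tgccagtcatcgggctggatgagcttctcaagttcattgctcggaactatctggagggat
Myl3, brighter: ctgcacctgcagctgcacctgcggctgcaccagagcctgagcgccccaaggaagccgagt
Myl3, other: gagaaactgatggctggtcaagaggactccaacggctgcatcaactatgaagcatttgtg

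The brighter Myl3 probe holds 68.3% G and C and the other 48.3%. Whether either Atp2a1 or Myl3 probe also binds a related transcript was not tested.

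Ryr1 encodes the calcium release channel. Its brightest probe was brighter in Cy5 on all 12 arrays, so that its ratio turned with the dye: the first arrays measured gave 1.24 to 2.03, and the swapped ones -1.52, -0.81 and -0.61. This probe was called higher from the first arrays alone (1.60, limma adjusted p = 0.000776) and not over all 12 arrays (0.75, adjusted p = 0.206). Both other Ryr1 probes gave 1.64 and 1.81 in tumor 2, 3.17 and 3.26 in tumor 3, and 2.62 and 2.82 on the swapped array labelled tumor 2. One of them, at chr7:25938215-25938913 on the minus strand, is shown as a probe whose ratio did not divide by dye, with 0.26, 2.62, 0.30 and -0.07 on the swapped arrays.

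Ryr1: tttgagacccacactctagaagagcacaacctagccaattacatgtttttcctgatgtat

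Myod1, the transcription factor that starts the muscle program, behaved as the brightest Ryr1 probe did. With outlier spots kept, it read 1.77 to 2.51 on the 8 first arrays and -2.34 to -2.02 on the 4 swapped arrays, and Cy5 was the brighter dye on all 12. Its call from the first arrays (2.34, limma adjusted p = 0.00292, 3 tumors without outlier spots) therefore goes with the dye and was absent with the swapped arrays. Among all genes tested, 3.651% were brighter in Cy5 on all 12 arrays. Myog, the factor of differentiating muscle cells, read 0.11 to 0.89 on the first arrays and -0.17 to -0.01 on the swapped ones, also turning with the dye, and Myf6 was too dim to be tested. No myogenic factor was thus called with both dyes in use.

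**Figure D3:**
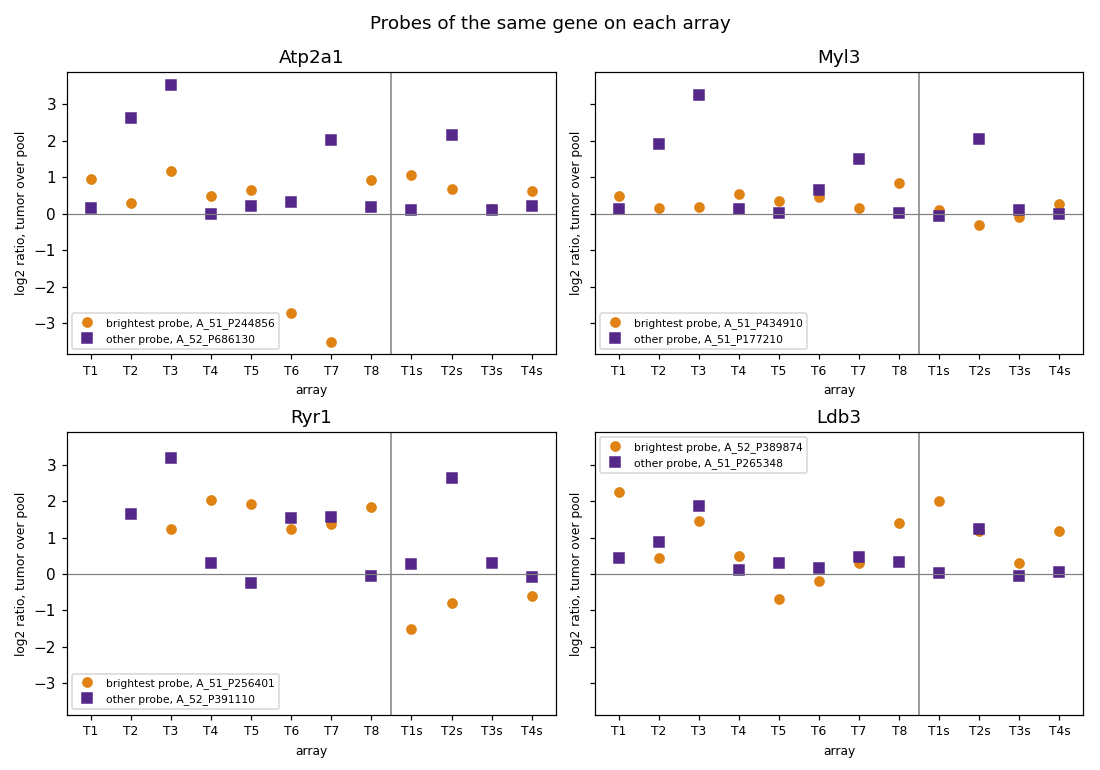
Log2 ratio of tumor over pool on each array for the brightest probe (circles) and another probe (squares) of Atp2a1, Myl3, Ryr1 and Ldb3. The brightest Ryr1 probe is above 0 on the first arrays and below 0 on the swapped ones, whereas its other probe is highest in T3 (3.17) and T2s (2.62).

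None of the 4 genes of oxygen and energy supply was called by limma. None had an unadjusted p under 0.05, where 6881 of all 20376 genes did. Ckm, the muscle creatine kinase, gave -0.19, 2.89, 4.09, -0.53, -0.12, -0.77, -0.02 and -0.68 on the first arrays, high in tumors 2 and 3 but not in tumors 6 and 7. Its mean was 0.27 ± 1.31 (SD, n = 8, limma adjusted p = 0.665). Mb, the oxygen store myoglobin and the brightest of the group, spanned -0.80 to 0.97. Eno3, the muscle enolase, spanned -0.46 to 0.98, and Pgam2, the muscle phosphoglycerate mutase, read 1.38 in tumor 3 and -2.85 in tumor 6.

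The pool RNA was the same on every array, yet its signal for these genes was not. For Myh4 the background-subtracted signal of the tumor RNA was 11583 and 29421 scanner units on the first arrays of tumors 2 and 3, 1242 in tumor 7, 500 in tumor 6 and at most 95 in the others. The pool RNA gave 464, 584, 208 and 61 on those 4 arrays, and between 21 and 34 on the other first arrays. On the swapped array labelled tumor 2 the tumor RNA gave 29356 and the pool RNA 2722. The pool signal was thus high where the tumor signal was high.

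Across the members, 15 had a tumor signal at least 3 log2 units above its median over the other arrays on their brightest array. On that array the pool signal of 12 of these 15 was also at least 1 log2 unit above its median over the other arrays, with a median rise of 2.66. Of 1275 other genes with such a tumor signal, 955 had a pool signal that high too, with a median rise of 2.02. Among the 235 of these that were brightest on the first array of tumor 3 or the swapped array labelled tumor 2, 88 had such a pool signal, with a median rise of 0.64. For Casq2, which was low in the tumors, the pool signal stayed between 332 and 532 units. Before normalization its tumor signal was the brighter one on the first arrays of tumors 1 (587 against 471) and 5 (439 against 387). A ratio on an array with a raised pool signal is smaller than it would be against the pool signal of the other arrays. The part of this in the values above was not tested.

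**Figure D4:**
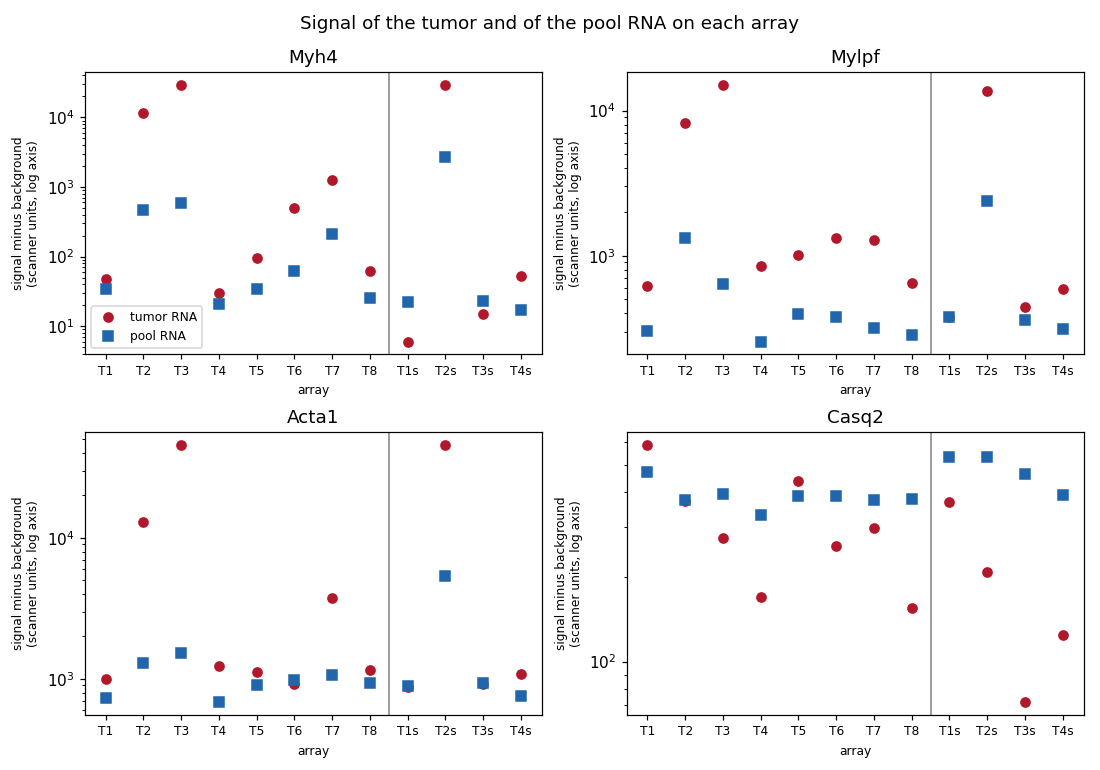
Background-subtracted signal (log axis, scanner units) of the tumor RNA (circles) and the pool RNA (squares) on each array for Myh4, Mylpf, Acta1 and Casq2. The pool signal of Myh4 rises from at most 61 on the first arrays T1, T4, T5, T6 and T8 to 584 on T3 and 2722 on T2s, while that of Casq2 stays between 332 and 532.

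Other genes of striated muscle were high most often in tumor 3. Of 70 listed, 68 were on the array and 46 were tested, of which 2 were called higher (Hrc, 0.75, and Ankrd23, 0.45) and 1 lower (Cox7a1, -1, a subunit of cytochrome oxidase in muscle and fat). These are 4.348% and 2.174% of the 46, where 7.1% and 11% of all genes were called higher and lower. On the first arrays 30 of the 68 were at least 2-fold above the pool in tumor 3, 11 in tumor 2, 6 in tumor 7 and 5 in tumor 6, against 0 to 3 in the other tumors. Of all genes tested, 13.65%, 5.185%, 9.166% and 13.55% were that high in tumors 3, 2, 7 and 6, so the counts in tumors 7 and 6 do not stand above that background. Myot, a Z disc protein, led with 3.67 in tumor 3, followed by Cox6a2 (3.28, a muscle subunit of cytochrome oxidase) and Myoz1 (3.23, a fast-fiber Z disc protein). Of the cardiac markers, Myh6, Myl7 and Ryr2 were not well above background on any array. None of the 6 tested was called by limma, with 1 at an unadjusted p under 0.05, where 6881 of all 20376 genes were.

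Markers of other cell types differed between the arrays too. The 9 tested satellite cell and fibroblast markers had a median of 3.23 in tumor 3, -0.34 in tumor 2, 0.52 in tumor 6 and 0.11 in tumor 7, and 1.92 on the swapped array labelled tumor 2. This list joins 2 cell types: in tumor 3 the satellite cell genes Pax7 and Cdh15 read 0.04 and 0.57, and the fibroblast gene Pdgfra 2.85. The satellite cell factor Myf5 was not well above background on any array. None of the 9 was called by limma, and 0 had an unadjusted p under 0.05, where 6881 of all 20376 genes did. The 14 smooth muscle and myoepithelial markers had a median of 1.39 in tumor 3 and between -0.04 and 0.58 on the other first arrays. Of these 14, Krt5 (1.33), Oxtr (0.91) and Krt14 (0.86) were called higher, beside 7.1% of all genes.

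Fat markers were highest elsewhere. The 14 adipocyte markers had a median of 1.54 in tumor 7 and 0.92 in tumor 3, and -1.03 in tumor 2, where the fast-fiber median was 2.25. None was called by limma, with 2 at an unadjusted p under 0.05. Of all 20376 genes, 7.1% were called higher, 11% were called lower and 6881 had an unadjusted p under 0.05. Of 7 brown fat markers, Fabp3, a fatty acid carrier that muscle also makes, was called higher (2.51), and Ppargc1a (-1.33) and Cox7a1 lower. The nerve and Schwann cell markers called lower included S100b, Ncmap and Mbp (-1.31, -0.61 and -0.40). Among 10 mammary epithelial markers Krt8 (0.85) and Epcam (0.74) were called higher. On the swapped arrays both were below the pool, at -0.90 to -0.48 and -0.86 to -0.50. The part of other cell types in the muscle values was not tested.

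**Figure D5:**
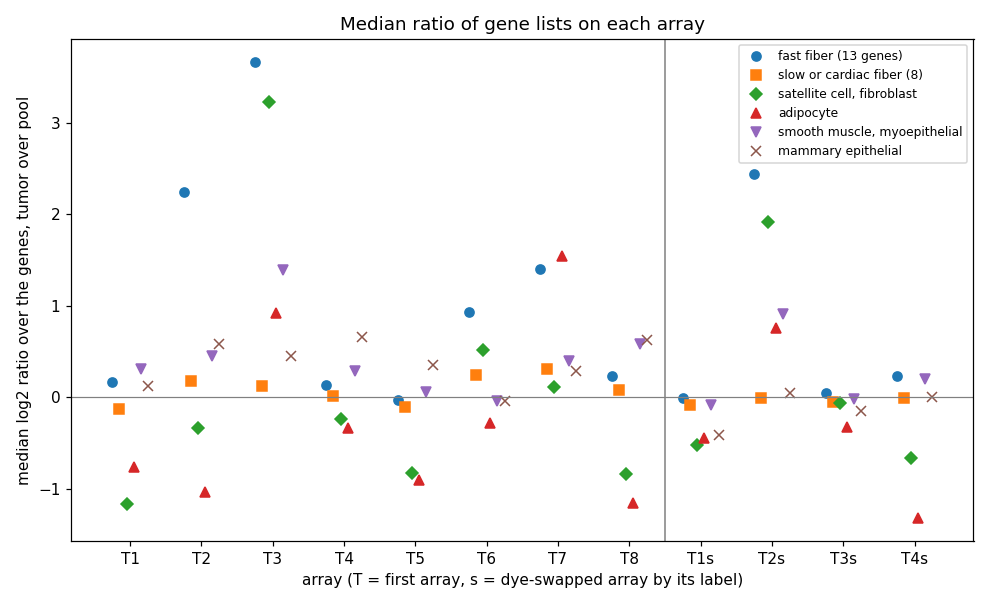
Median log2 ratio of tumor over pool on each array for fast-fiber and slow-fiber members and for markers of other cell types. The fast-fiber median is highest in T3 (3.67), T2s (2.44) and T2 (2.25). The joint median of satellite cell and fibroblast markers is high in T3 and T2s but not in T2 (-0.34), and the adipocyte median is highest in T7 (1.54).

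The fast members varied together over the first arrays. The median pairwise Pearson correlation of the 13 fast members over the 8 first arrays was 0.92, and that of all 40 members was 0.38, as a description of arrays that share 1 pool. Of 37 members measured on at least 7 first arrays, 19 correlated at 0.9 or more with the median of the fast members, a gene's own value left out. The likeness did not divide cleanly by fiber type. Among slow members Mybpc1 was at 0.96 and Myl2 at 0.77 where Tnni1 was at 0.03 and Myl3 at -0.68, among developing-fiber members Myh8 was at 0.97 and Myh3 at -0.44, and the fast Atp2a1 was at -0.02. Among other genes, the 8 most like the per-tumor median of the tested members, with an SD of at least 0.5, were Angpt4, Rarres2, AK048897, Arsi, Srpx2, Cxcl14, Krt14 and Aoc1, with r from 0.96 to 0.99 over the 8 tumors. Over the 8 first arrays alone their r was 0.90 to 0.96. Their first-array values in tumor 2 lay between -0.43 and 1.23 and in tumor 3 between 1.88 and 3.67.

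Promoters were compared because the fast genes moved together. RefSeq promoters (GRCm38.p6, 250 bases before to 50 after the start) were found for 32 of the 40 genes. The E-box CAGCTG, a site that myogenic factors can bind, stood in 14 of the 32 (43.8%) against 16.1% of 27025 promoters, either strand. TATAAA stood in 8 (25%) against 14.2%, and CTANNNNTAG, a loose form of a MEF2 core, in 3 (9.38%) against 3.7%. This last pattern allows any base at N, so its matches need not be MEF2 sites. The 14 with an E-box held fast genes (Myh4, Myl1, Mylpf, Atp2a1 and Casq1), slow ones (Myl2, Mybpc1 and Tnni1) and 6 that were assigned to no fiber type, Ckm and Acta1 among them. These matches are letters in a window and were not tested against the values.

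The 250 bases before the start are printed for Ckm (chr7:19410844-19411093, plus strand) and Acta1 (chr8:123894776-123895025, minus strand), which shared the order of tumors 3 and 2 and hold an E-box each. Capitals mark CAGCTG and TATAAA.

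Ckm: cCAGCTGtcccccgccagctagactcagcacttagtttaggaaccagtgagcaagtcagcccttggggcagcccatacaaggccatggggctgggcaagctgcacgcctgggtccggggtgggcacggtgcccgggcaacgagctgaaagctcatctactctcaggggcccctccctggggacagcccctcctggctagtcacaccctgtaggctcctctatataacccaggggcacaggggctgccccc
Acta1: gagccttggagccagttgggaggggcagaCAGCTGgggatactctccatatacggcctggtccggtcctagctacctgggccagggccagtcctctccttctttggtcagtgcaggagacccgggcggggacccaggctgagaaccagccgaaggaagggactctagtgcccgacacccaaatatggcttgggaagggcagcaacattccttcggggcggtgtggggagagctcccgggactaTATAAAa

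The value table that the authors deposited gave the same picture. Over 461 pairs of values of the 40 members it correlated at 0.987 with the ratios used here, and 39 of 40 means had the same sign, the exception being Mb. For Myh4 its values were 3.64 and 4.95 on the first arrays of tumors 2 and 3 and 2.41 and 2.01 in tumors 6 and 7. It called 10 members higher and Casq2 lower, with Myh2, Tcap, Ttn and Ryr1 beside the 6 above. Of all 20400 genes tested from that value table, 1951 were called higher and 2058 lower.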

How the data were processed

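Scanner files of 12 arrays with 2 channels were used. Feature Extraction 9.5.3.1 quantified the spots, per the file headers, and mean and local background intensities were deposited without normalization. The deposited log10 ratio is red over green of Feature Extraction's processed signals, and other deposited flags of 0 or 1 mark outliers, saturation and spots well above background. The authors' log2 values run tumor over pool on every array and their column medians lie between -0.0715 and 0.137, but their scaling and centring are not given in the sources used here.

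Local backgrounds above 5 times the channel median of an array (up to 257 values on an array) were set to that median, because single values up to 65342 distorted the correction on the swapped array labelled tumor 1 and the first array of tumor 2. This step was chosen after seeing the data; without it the correlation with the value table fell from 0.965 to 0.826 and from 0.972 to 0.928. Intensities were then corrected by normexp (offset 50) and loess, with control spots at weight 0 (limma 3.58.1, R 4.3.3 and its package data.table, version 1.17.8). Outlier spots (0.47% to 13.7% of an array) were left out, spots of a probe averaged, and both arrays of a tumor averaged (n = 8). Of 41174 probes, 30805 were kept, being well above background in either channel on an array of at least 4 tumors. Names came from RefSeq through the file's accession (22894 probes), symbol (6715) or older symbol (3110), and 8455 kept the file's name. The brightest kept probe stood for a gene. For Neb this is not the brightest probe of all.

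Limma tested each mean log2 ratio against 0, Benjamini-Hochberg adjusted over all 20376 genes, and checked on simulated data; single members also had an exact two-sided sign-flip permutation test. Arrays lay on 3 slides; the swapped arrays share 1 of them, so their slide and their dye cannot be told apart. The members, gene lists and naming rule (called members, the largest and brightest of each role, those with a tumor apart) were chosen with earlier results of these data known. Alternatives changed the normalization, filter, probe rule, outliers, dye, slide and tumors. The number of arrays limits the precision.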

Additional observations from a re-analysis of the deposited data

Results flagged for a closer look

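Of the 40 muscle genes checked over the 8 tumors, 1 had a tumor set apart from the rest by its gap to the nearest tumor as a share of the whole range. Pgam2, the muscle phosphoglycerate mutase, read -2.85 in tumor 6, and the nearest tumor read -0.85, a gap of 0.56 of the range, above the 95% critical value for 8 samples. Chance flags about 1 in 20 groups. On the first arrays alone the gap was 0.47 of the range and would not be flagged.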

How the results depend on the processing

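The count of 7 called members (6 higher, 1 lower) was 11 from the deposited value table, 3 with both channels well above background on every array (16 members left), 3 with a dye term and swapped arrays blocked by their best match, and 1 on the first arrays of tumors 1 to 4 and 1 on those of tumors 5 to 8; leaving out a tumor gave 4 to 8. It was 4 without tumor 2, 3 or 7, where Mybpc2, Cacna1s, Casq1 and Casq2 were called and Myh1, Mylpf and Tnnc2 were not. The median of the members was 1.03 on the first arrays of tumors 1 to 4 and 0.35 to 0.53 without a tumor. Calls among all genes (3690) were 4009 from the value table and 2583 with the best-match block. They fell to 1575 and 309 in the first arrays of tumors 1 to 4 and 5 to 8, and to 2260 without tumor 4 (2260 to 4755 over the tumors). Calls among the other lists (14) fell to 8 with the best-match block and to 5 and 1 within the slides, and were 10 to 18 without a tumor. The within-slide fits use 4 tumors each.

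Mybpc2 and Cacna1s kept their call under 19 of 21 alternatives, Casq2 under 21 of 22, Casq1 under 17 of 21, Tnnc2 under 15 of 22, Mylpf under 9 of 22 and Myh1 under 7 of 21. Uncalled genes turned their sign: Mb (-0.05) to 0.05 with Feature Extraction's ratio, 0.17 with median centring, 0.01 with the value table, 0.15 on the first arrays with or without the slide block, 0.26 and 0.03 within the slides and -0.2 to 0.06 without a tumor (0.06 without tumor 6); Ttn to -0.09 with both channels bright, where another probe stood for it; Pgam2 to 0.40 on the first arrays of tumors 1 to 4; and Acta1 to -0.16 on those of tumors 5 to 8. The cause of the other changes was not tested. With median centring 72.5% of calls were higher, against 39.2%. Local backgrounds as deposited, an alternative chosen after seeing the data, gave the same 7 members. No paired analysis was possible because the study has 1 group of tumors against 1 pool. Signals near background limit Myh3, Myh7, Neb and the low tumors of Myh1, Myh4, Myh8 and Casq1.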
